A study of Homo sapiens with 6 samples.

Results

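The translation factor genes described here are the protein-coding genes whose GENCODE release 29 symbol begins with EIF1 to EIF6, EEF1 or EEF2, without EIF2AK2. The rule uses symbols alone and no measured value. It gave 70 genes of the 60554 gene identifiers in the count files. Of these 70, 68 have a row in the files and 62 passed the filter on low counts and were tested. EEF1AKMT4 and the readthrough gene EEF1AKMT4-ECE2 have no row. EEF1G and EEF1E1-BLOC1S5 were listed at 0 reads in all 6 libraries, and EIF1AY, EIF2S3B, EIF4E1B and EIF5AL1 did not pass the filter.

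RNA came from Daoy, an established human cell line of a cerebellar medulloblastoma, so the libraries represent a single line. Lentivirus carried wild-type ZBTB7B into the cells of 3 libraries (WT) and ZBTB7B with the zinc-finger substitution R363L into those of the other 3 (ZFmut). ZBTB7B is a zinc-finger transcription factor that also exists in these cells as their own gene, and all 6 libraries carry a transgene, so no untransduced control was analysed here. Cells were exposed to virus for 72 hr at an MOI (infectious virus units per cell) of 15, within 4 days of culture in 10% serum. The comparison shows which transcripts differed between the WT and ZFmut libraries, and directions below are for WT against ZFmut.

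Gene counts ranged from 22236214 to 102730428 reads per library. ZBTB7B, the overexpressed gene, was at 899, 863 and 951 CPM (TMM-normalised read counts scaled to a common library size) in WT replicates 1 to 3, and at 555, 547 and 627 CPM in ZFmut. These counts do not separate the transgene from the cells' own copy. Every WT value lay above every ZFmut value, so the level of ZBTB7B and the state of its zinc-finger domain cannot be told apart here. Of 9 genes of the cerebellar granule lineage and medulloblastoma, all had reads, and their summed level was 164 to 182 CPM in WT and 165 to 179 CPM in ZFmut. Among the 7 tested, GLI1 (1.27-fold) and PTCH1 (1.10-fold) were higher in WT at an adjusted p under 0.05 in edgeR's quasi-likelihood test. None of the 7 was lower. Among all tested genes 18.4% were higher and 17.2% lower. The defining granule precursor genes ATOH1 and BARHL1 were near 0, with 8 and 52 reads over all libraries. Summed neuron markers (4 of 4 with reads) reached 22.01 to 23.73 CPM in WT and 13.8 to 18.3 CPM in ZFmut, epithelial markers (3 of 3) 3.55 to 4.39 and 1.56 to 2.13 CPM, and leukocyte markers (4 of 4) 0.855 to 1.27 and 1.38 to 1.78 CPM. Single genes carried these sums: MAP2 was at 13.5 CPM in WT and 5.43 CPM in ZFmut and CDH1 at 2.91 and 0.471 CPM, while SYP (5.90 and 7.61 CPM) and KRT19 (0.641 and 0.95 CPM) had lower means in WT. Neural progenitor markers (4 of 4) summed to 862 to 893 and 916 to 961 CPM, with SOX2 1.79-fold and NES 1.37-fold higher in ZFmut. Astrocyte and oligodendrocyte markers (4 of 4) summed to 7.77 to 8.13 and 7.45 to 7.68 CPM, with genes in both directions. AQP4 was 16.6-fold higher in WT, from a level of 0.0834 to 0.0892 CPM in ZFmut, and MBP 1.92-fold higher. OLIG2 (1.56-fold) and GFAP (1.74-fold) were higher in ZFmut. The part of these markers in the differences below was not tested.

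Protein synthesis begins when initiation factors bring the initiator tRNA to the small ribosomal subunit, recruit the subunit to the capped end of the mRNA and scan for the start codon. Elongation factors then deliver aminoacyl-tRNAs and move the ribosome along the codons. Growth signals through mTORC1 act on this machinery through the eIF4E-binding proteins, and stress kinases act on it through eIF2; many elongation factor mRNAs belong to the TOP class, whose translation depends on a pyrimidine tract at their first base.

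EEF1A2, the tissue-restricted form of the tRNA delivery factor, was 3.14-fold higher in WT, and it was the only member of the 62 that differed by 2-fold or more. EIF4EBP1, which holds back the cap-binding protein eIF4E, was 1.49-fold lower. Most other differences were small. In edgeR's quasi-likelihood test 5 members were higher in WT at an adjusted p under 0.05 (8.06%), against 18.4% of all 18683 tested genes. Lower in WT were 15 members (24.2%), against a background of 17.2%. In total 20 members (32.3%) were called, against 35.6% of all tested genes and 43.9% of the 11244 protein-coding genes with at least 5 CPM. Among those protein-coding genes 22.5% were higher and 21.4% lower. The median log2 difference of the members was -0.05, beside 0.00 for all tested genes. In bulk RNA, fewer cells that carry a transcript and less of it per cell cannot be told apart.

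**Figure D1:**
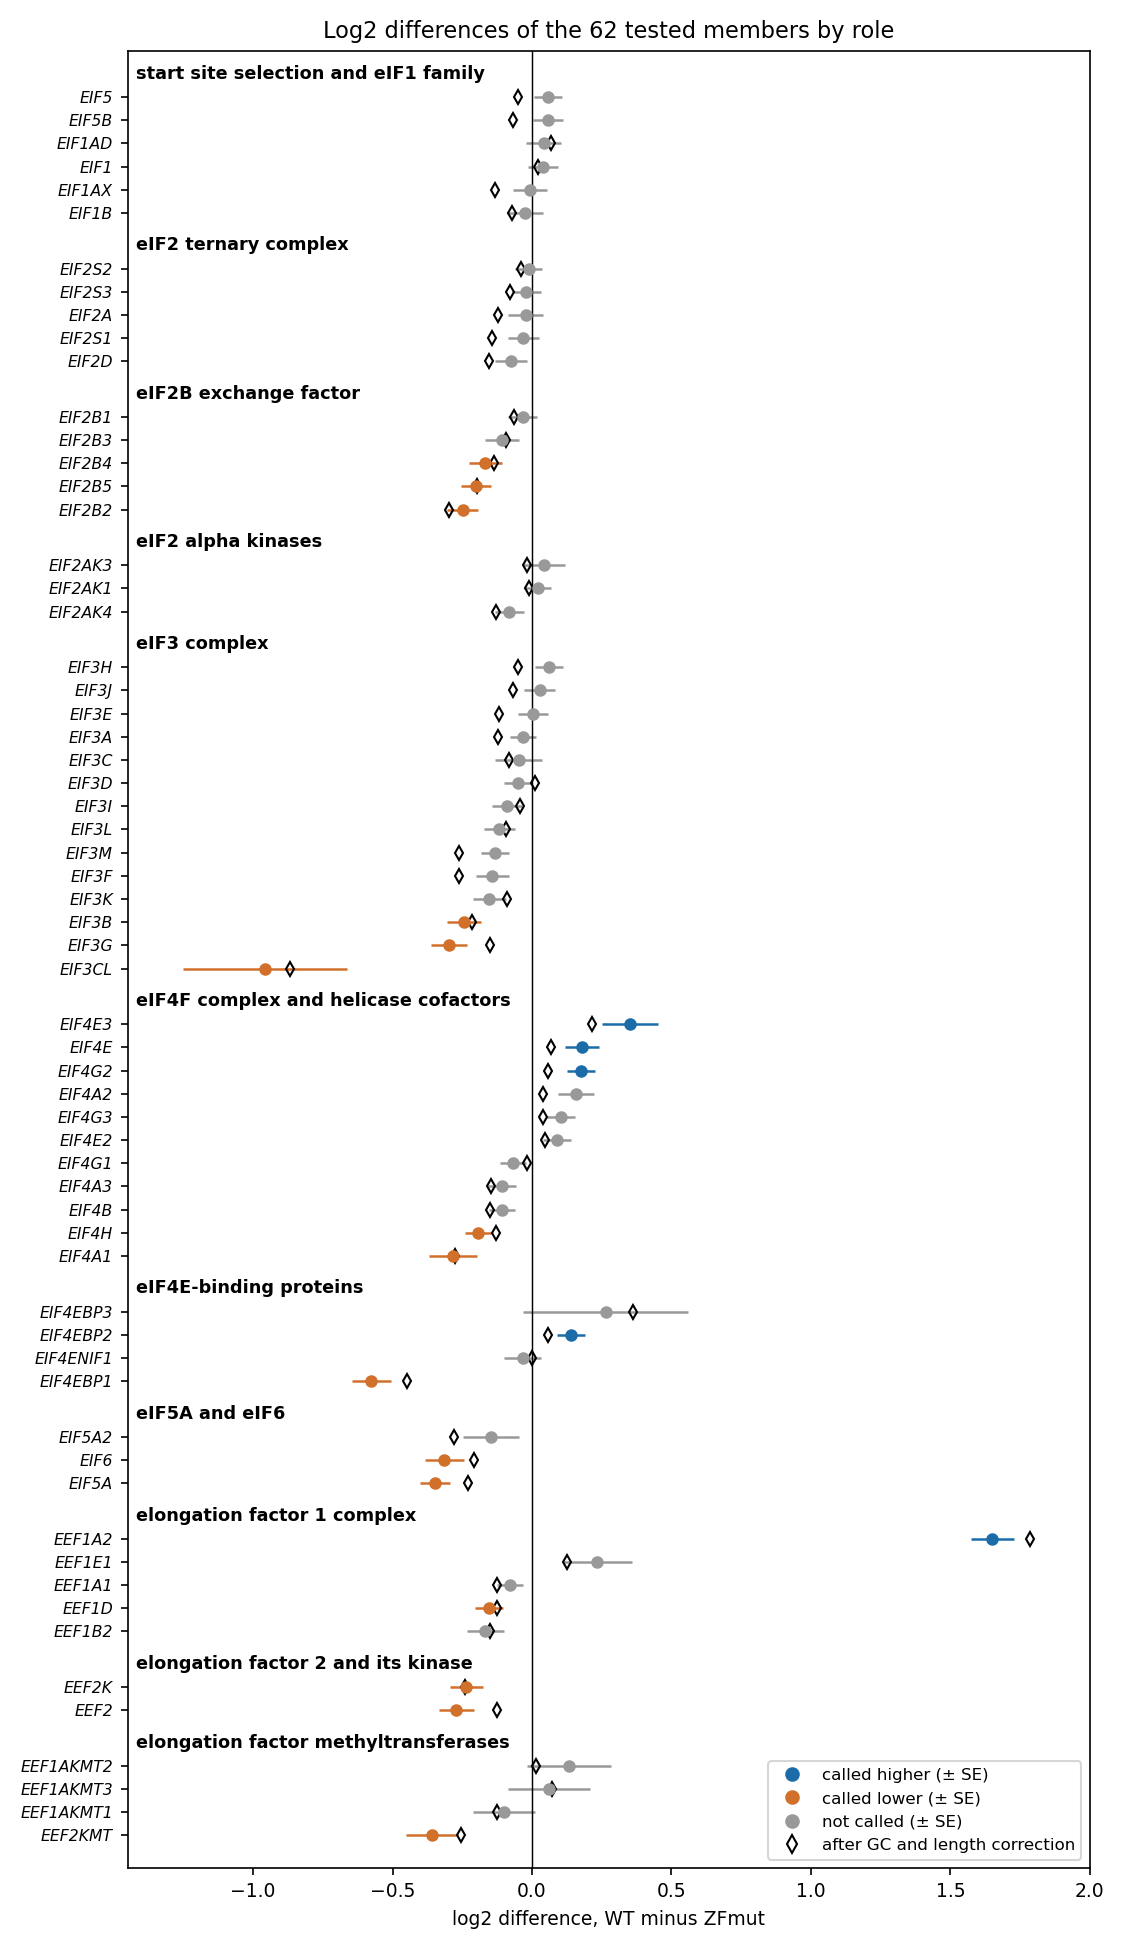
Log2 difference (WT minus ZFmut) of each of the 62 tested members with its standard error, grouped by role; filled points are coloured by the edgeR call and open diamonds give the difference after correction for GC content and length. EEF1A2 stands alone at 1.65, and EIF4EBP1 is at -0.58.

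Most of the differences were negative, with 41 of the 62 members below 0 on the log2 scale. Every WT library lay below every ZFmut library in 26 members (41.9%), against 22.8% of all tested genes, and above in 7 (11.3%), against 24.4%. Deviations of same-numbered samples correlated at 0.53, 0.31 and 0.30, and a pairing by replicate number was taken from these same data. With that number as a block 24 members were lower and 7 higher, against backgrounds of 22.6% and 23.9%. The block kept all 20 calls and added 11, among them EEF1A1, EIF4A2, EIF4A3 and EIF4G3. After correction for GC content and length, 29 members were lower (46.8%, background 21.0%) and 2 were higher (3.23%, background 20.5%). All 15 lower calls kept that call after the correction, and of the 5 higher calls EEF1A2 and EIF4E3 kept theirs. With each library left out in turn, 2 to 6 members were higher and 11 to 20 lower. The higher count was 2 without WT 1 or ZFmut 3, and 3 without WT 3 or ZFmut 2. Calls over all tested genes in these fits ranged from 2504 to 3782 higher and from 2266 to 3934 lower.

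The annotated first bases of the members were searched for a pyrimidine tract. No start sites measured in these cells were used, so a start annotated a few bases off can hide a tract. RefSeq starts on GRCh38.p14 were found for 56 members by symbol. A run of at least 5 pyrimidines that begins with C at the first transcribed base, read on the transcribed strand, was found in 13 of them (23.2%), against 5.14% of all 27305 symbols with a RefSeq start. Each line below gives 12 bases before the start and 18 from it, 5′ to 3′, with the run in capitals. The first 6 are members with the run and the last 3 are called members without it, shown for contrast. A member with several RefSeq starts was counted if any of them had the run; EEF1B2 has a further start without it, which is not shown.
EEF2 (chr19:3985446-3985475, minus strand): gacgtcagcgttCTCTTCCgccgtcgtcgc
EEF1A1 (chr6:73521015-73521044, minus strand): gccgtgaacgttCTTTTTCgcaacgggttt
EEF1B2 (chr2:206159883-206159912, plus strand): gtctcttcgggtCCTTTTTCCTCTCTTCag
EIF3F (chr11:7987325-7987354, plus strand): cgcttccgcctcCTTCTTTCTCgacaagat
EIF4B (chr12:53006444-53006473, plus strand): cctcatccgggtCTTTTgcgttctctttcc
EIF4A2 (chr3:186783565-186783594, plus strand): gggcgccgctgtCTTTTCagtcgggcgctg
EIF4H (chr7:74174344-74174373, plus strand): tcctcgctcaccctggttcctctcggagcg
EIF2B2 (chr14:75002909-75002938, plus strand): ctcgcccgccccggaagtgcaaactgtgtg
EIF4E (chr4:98929116-98929145, minus strand): tctggagcggttgtgcgatcagatcgatct
The run was 7 bases long in EEF1A1 and EEF2, 16 in EEF1B2, 10 in EIF3F, 6 in EIF4A2 and 5 in EIF4B.

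EEF1A2 and EIF4EBP1, which had the largest differences among members above 1 CPM, had no RefSeq start by symbol and lie outside this split. The called members EEF1D, EIF3G, EEF2KMT and EIF3CL had none either and also lie outside it. Of the 12 tested members with the run, EEF2 was called lower and none was called higher; their median log2 difference was -0.09. Of 36 tested members with a RefSeq start and no run, 4 were higher and 9 lower, with a median of -0.03. With the replicate block 7 of the 12 were lower, beside 22.6% of all tested genes, and EIF4A2 was higher. After the GC and length correction 8 of the 12 and 14 of the 36 were lower. That compares with 46.8% of the 62 members and 21.0% of all tested genes. A run of letters describes the sequence only, and the difference between the sets was not tested.

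Factors of start-codon selection showed no call. EIF1 and EIF1AX keep the scanning subunit open, EIF5 triggers GTP hydrolysis by eIF2, and EIF5B joins the subunits. The log2 differences of the 6 tested genes of this group lay between -0.02 and 0.06. EIF1 was at 361, 349 and 347 CPM in WT and 335, 366 and 329 CPM in ZFmut. Its groups overlapped. No gene of this group, of the eIF2 subunits or of the eIF2 alpha kinases had an unadjusted p under 0.05 in edgeR's test, and DESeq2 and limma-voom called 0 of them. After the GC and length correction EIF1AX was called lower (-0.13, adjusted p = 0.0031).

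The subunits of eIF2, which carries the initiator tRNA, are EIF2S1, EIF2S2 and EIF2S3. They were grouped with EIF2A and EIF2D, separate factors that are not subunits of eIF2. This group likewise had no call among 5 tested genes, with log2 differences from -0.08 to -0.01. EIF2S1, the alpha subunit that stress kinases phosphorylate, was at 159, 154 and 153 CPM in WT and 168, 160 and 149 CPM in ZFmut. Its groups overlapped, and the log2 difference was -0.03 ± 0.06 (SE; adjusted p = 0.712). After the GC and length correction EIF2S1 (-0.14, adjusted p = 0.00776), EIF2A (-0.12) and EIF2D (-0.16) were called lower. With the block added 4 of the 5 genes were. Of all tested genes 21.0% were lower after the correction and 22.5% with the block added.

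The eIF2 alpha kinases were not called either. EIF2AK1, the heme-regulated kinase, was at 114, 112 and 109 CPM in WT and 111, 112 and 107 CPM in ZFmut (log2 difference 0.02 ± 0.05, adjusted p = 0.788). EIF2AK3, the kinase of endoplasmic reticulum stress also known as PERK, was at 13.7, 14.0 and 13.8 CPM against 14.5, 13.3 and 12.9 CPM (0.04 ± 0.07, adjusted p = 0.706). EIF2AK4, the amino acid sensor GCN2, was at 65.1, 67.7 and 68.4 CPM against 69.0, 73.8 and 70.2 CPM. Its WT values all lay below its ZFmut values, by little (-0.08 ± 0.05, adjusted p = 0.24); after the GC and length correction it was called lower (-0.13, adjusted p = 0.0205).

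The exchange factor eIF2B recharges eIF2 with GTP. Of its 5 subunits 3 were lower in WT, beside 17.2% of all tested genes, while EIF2B1 (-0.03) and EIF2B3 (-0.11) were not called. EIF2B2, a regulatory subunit, was at 54.6, 51.8 and 51.9 CPM in WT and 59.1, 65.0 and 63.7 CPM in ZFmut. The groups did not overlap, and the log2 difference was -0.25 ± 0.06 (adjusted p = 0.00297), a level 1.19-fold higher in ZFmut. EIF2B5, the catalytic subunit, was at 91.2, 91.2 and 90.5 CPM against 106, 111 and 97.6 CPM (-0.20 ± 0.05, adjusted p = 0.0102). The third, EIF2B4, was at 36.6, 37.6 and 34.7 CPM against 39.0, 41.8 and 41.4 CPM (-0.17 ± 0.06, adjusted p = 0.0418). All 3 separated the groups, and none lost its lower call after the GC and length correction. EIF2B5 lost its call without WT 3, and EIF2B4 lost it when any library other than ZFmut 1 was left out. Gene models on the other strand cover 23.6% of the exonic bases of EIF2B2, and the strand setting of the counting is not given in the sources used here.

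The eIF3 complex is the large scaffold that binds the small subunit and the cap complex. Of its 14 tested genes, 3 were lower and none higher, beside 17.2% and 18.4% of all tested genes. With the replicate block 8 were lower, beside 22.6% of all tested genes. At an unadjusted p under 0.05, 7 were lower and 0 higher in edgeR's test, and DESeq2 and limma-voom each called 3 lower and 0 higher. Shares of all tested genes at that threshold or with those tools are not given here. EIF3G, an RNA-binding subunit, was at 265, 294 and 287 CPM in WT and 316, 369 and 355 CPM in ZFmut, with no overlap (-0.30 ± 0.06, adjusted p = 0.00205). EIF3B, a core subunit, was at 493, 523 and 509 CPM against 561, 659 and 586 CPM (-0.24 ± 0.06, adjusted p = 0.00546). Every ZFmut library exceeded every WT library for both genes, and ZFmut 2 was the highest.

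The other core subunit EIF3A, at 561, 545 and 541 CPM in WT and 566, 574 and 544 CPM in ZFmut, had a log2 difference of -0.03 ± 0.05 (adjusted p = 0.648), and it was called lower after the GC and length correction (-0.12, adjusted p = 0.0124). EIF3H (0.06), EIF3J (0.03) and EIF3E (0.00) were the members of this complex with the highest log2 differences. After the correction 7 of the 14 were lower, beside 21.0% of all tested genes. Among these 7, EIF3E was at -0.12 (adjusted p = 0.0305), EIF3F and EIF3M were at -0.26, and EIF3G was nearer 0, at -0.15. EIF3CL is a near-identical copy of EIF3C, was at 0.276 to 0.709 CPM, and its lower call (-0.96 ± 0.30, adjusted p = 0.0204) was lost without WT 1, WT 2 or ZFmut 3. Reads shared by the copies were not assigned to either, so the values of EIF3C (45.03, 50.06 and 42.57 CPM in WT against 40.42, 50.02 and 51.36 CPM in ZFmut) and EIF3CL are uncertain.

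The eIF4F complex recruits mRNA by its cap. In this group of 11 tested genes, 3 were higher and 2 lower, beside 18.4% and 17.2% of all tested genes. EIF4G2, the eIF4G relative that lacks the eIF4E-binding site, was at 974, 928 and 939 CPM in WT and 878, 838 and 802 CPM in ZFmut. All WT libraries were above all ZFmut libraries (0.17 ± 0.05, adjusted p = 0.0133). The call was lost after the GC and length correction (0.06, adjusted p = 0.201) and without WT 1 or ZFmut 3. EIF4G1, the main scaffold, was at 1094, 1140 and 1135 CPM against 1138, 1223 and 1173 CPM (-0.07 ± 0.05, adjusted p = 0.284). EIF4G3 was at 213, 207 and 205 CPM against 196, 194 and 192 CPM (0.10 ± 0.05, adjusted p = 0.119). Its groups were apart, and the block fit called it higher (adjusted p = 0.0131), but it was not called after the GC and length correction (0.04, adjusted p = 0.425), with or without the block.

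Among the cap-binding proteins, EIF4E3, a weakly binding relative of eIF4E, was at 12.6, 11.6 and 12.0 CPM in WT and 9.99, 7.68 and 10.2 CPM in ZFmut. It was 1.28-fold higher with no overlap (0.35 ± 0.10, adjusted p = 0.0137) and stayed higher after correction (0.22, adjusted p = 0.0379). EIF4E itself, the main cap-binding protein, was at 61.4, 57.4 and 63.3 CPM against 57.4, 52.4 and 51.2 CPM. WT 2 and ZFmut 1 were at the same level to 3 digits, and the groups overlapped (0.18 ± 0.06, adjusted p = 0.0316). The EIF4E call was lost after the correction (0.07, adjusted p = 0.236) and in 4 of the 6 fits without a single library (WT 1, WT 3, ZFmut 2 or ZFmut 3). EIF4E2, which competes for caps and represses translation, was at 68.5, 68.6 and 65.5 CPM against 64.3, 63.1 and 63.0 CPM (0.09 ± 0.05, adjusted p = 0.177).

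The helicase cofactor EIF4H, which stimulates eIF4A, was at 864, 874 and 862 CPM in WT and 961, 1024 and 985 CPM in ZFmut. It was lower in every WT library (-0.19 ± 0.05, adjusted p = 0.00488). The other cofactor, EIF4B, was at 580, 578 and 578 CPM against 628, 622 and 621 CPM, with groups apart (-0.11 ± 0.05, adjusted p = 0.0816; with the block 0.00575). Among the helicases, EIF4A2 was at 429, 378 and 394 CPM against 391, 342 and 344 CPM (0.16 ± 0.06, adjusted p = 0.0706; with the block 0.000174). EIF4A3, the helicase of the exon junction complex, was at 154, 152 and 153 CPM against 160, 171 and 164 CPM (-0.11 ± 0.05, adjusted p = 0.115; with the block 0.013). After the GC and length correction EIF4A2 was not called (0.04, adjusted p = 0.444; also not with the block), while EIF4A3 (-0.15, adjusted p = 0.0048) and EIF4B (-0.15, adjusted p = 0.00116) were lower.

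EIF4A1 was called lower from few reads, at 7.25, 6.88 and 6.96 CPM in WT and 8.70, 8.34 and 8.57 CPM in ZFmut (-0.28 ± 0.09, adjusted p = 0.0203). The call was lost without WT 2, WT 3 or ZFmut 3. Other gene models on the same strand, among them the readthrough SENP3-EIF4A1, cover 48.6% of its exonic bases. Reads that fit more than 1 gene were left out of the gene counts, so these values hold only part of the gene. For EEF1G, a subunit of the eEF1 exchange complex that was listed at 0, AP002990.1 covers 99.9% of the exonic bases and was itself at 1.01 CPM in WT and 0.97 CPM in ZFmut.

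**Figure D2:**
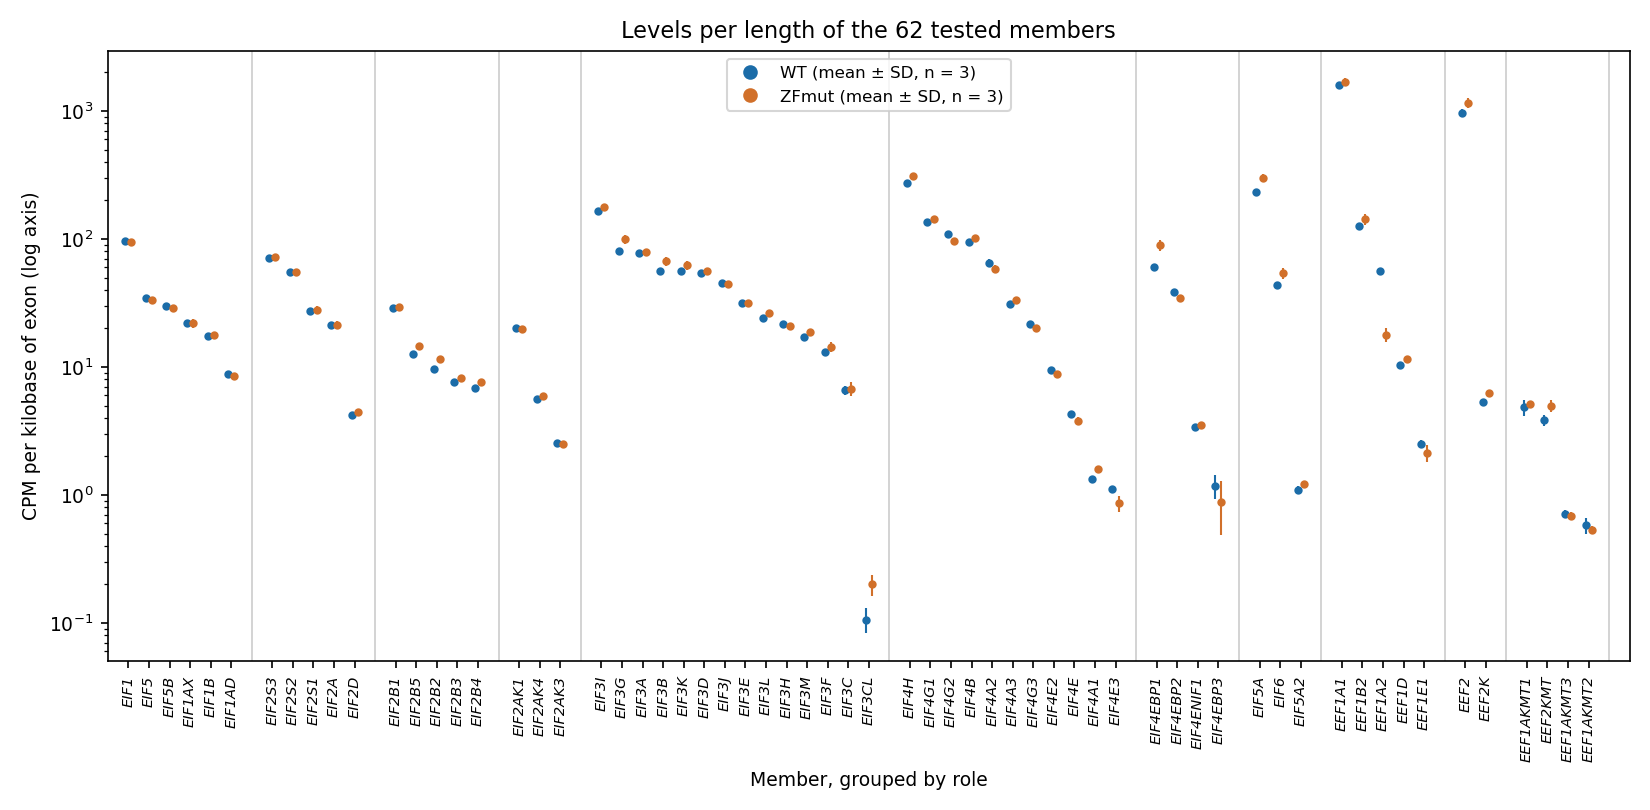
Mean level per exon length (CPM per kilobase of exon, log axis) with SD over 3 libraries in WT and ZFmut for the 62 tested members by role. EEF1A1 at 1598 and EEF2 at 963 in WT are the highest, EIF3CL at 0.106 is the lowest, and EEF1A2 shows the widest gap between the groups.

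The eIF4E-binding proteins withhold eIF4E from the eIF4F complex when mTORC1 is inactive. Of 4 tested genes EIF4EBP1 was lower and EIF4EBP2 higher, beside 17.2% and 18.4% of all tested genes. EIF4EBP1 was at 60.2, 67.3 and 66.1 CPM in WT and 84.8, 102 and 101 CPM in ZFmut. Its groups were far apart, with a log2 difference of -0.58 ± 0.07 (adjusted p = 2.07e-05), and it was lower in all 16 alternative fits. After correction the difference was -0.45 (adjusted p = 9.29e-09). EIF4EBP2 was at 278, 283 and 275 CPM against 256, 242 and 260 CPM, again with no overlap (0.14 ± 0.05, adjusted p = 0.0422). That call was lost after the GC and length correction (0.06, adjusted p = 0.254) and whenever any 1 of the 6 libraries was left out. EIF4EBP3 (0.829, 0.985 and 0.633 against 0.312, 0.668 and 0.854 CPM) and the eIF4E shuttling protein EIF4ENIF1 (20.9, 20.7 and 20.9 against 20.2, 22.7 and 21.1 CPM) overlapped between groups and were not called. A readthrough gene covers 73.4% of the exonic bases of EIF4EBP3.

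**Figure D3:**
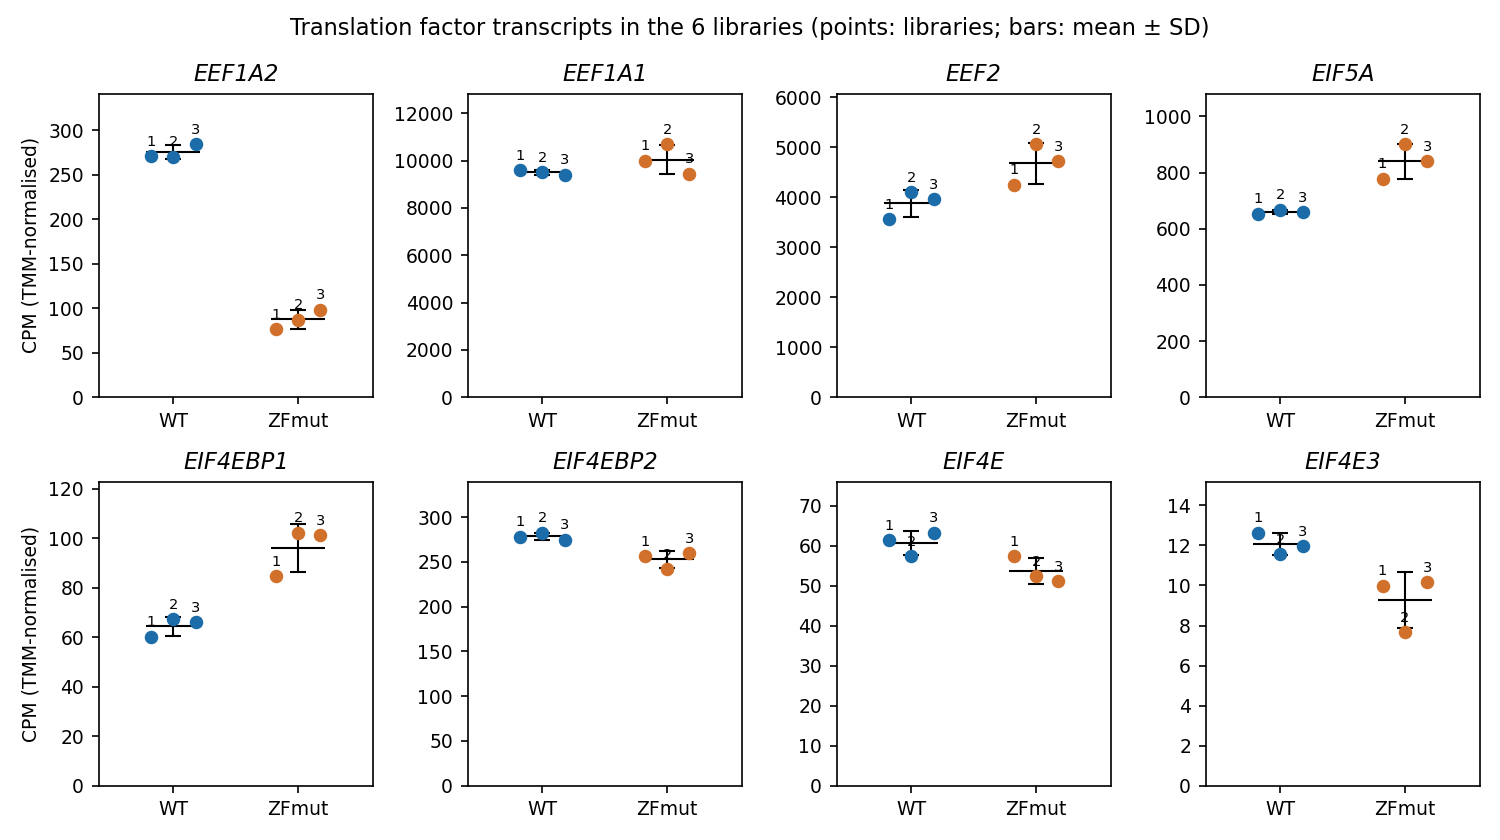
CPM of 8 members in each library (points, numbered by replicate) with mean and SD; every axis starts at 0. The EEF1A2 points of WT lie at 271 to 285 CPM and those of ZFmut at 76.6 to 98.6 CPM, whereas EIF4EBP1, EIF5A and EEF2 are higher in ZFmut.

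EIF5A, the hypusine-carrying factor that helps ribosomes past difficult peptide bonds, lies at chr17:7306999-7312463 on the plus strand. It was at 653, 668 and 660 CPM in WT and 778, 901 and 841 CPM in ZFmut. The WT libraries were within a narrow band below all ZFmut libraries (-0.35 ± 0.06, adjusted p = 0.000213), a level 1.27-fold higher in ZFmut. Its paralogue EIF5A2 was at 6.56, 6.09 and 5.67 CPM against 7.14, 6.88 and 6.45 CPM, with overlap (-0.15 ± 0.10, adjusted p = 0.282); after the GC and length correction it was called lower (-0.28, adjusted p = 0.0244). EIF6, which keeps the large ribosomal subunit from joining early, was at 67.0, 76.3 and 70.4 CPM against 78.9, 96.2 and 90.8 CPM. It was lower in every WT library (-0.32 ± 0.07, adjusted p = 0.00291). EIF5A and EIF6 were lower in every alternative fit, at -0.23 and -0.21 after the GC and length correction.

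EEF1A2 lies at chr20:63488012-63499322 on the minus strand, shares no exonic bases with other gene models and is known as the eEF1A form of neurons and muscle. It was at 271, 271 and 285 CPM in WT and 76.6, 87.0 and 98.6 CPM in ZFmut. All WT libraries lay far above all ZFmut libraries. The log2 difference was 1.65 ± 0.08 (adjusted p = 1.2e-09), and it was 1.78 after the GC and length correction. Without single libraries it stayed between 1.55 and 1.75.

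EEF1A1, the form that nearly all cells use, was the most abundant member, at 9600, 9512 and 9408 CPM in WT and 9991, 10701 and 9449 CPM in ZFmut. ZFmut 3 fell among the WT values, so the groups overlapped (-0.08 ± 0.05, adjusted p = 0.206). It was called lower with the block (adjusted p = 0.0348) and after the GC and length correction (-0.12, adjusted p = 0.00762). Reads on its 39 annotated pseudogenes came to 0.152 to 0.245% of the reads on gene and pseudogenes together.

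The eEF1 exchange subunits recharge eEF1A with GTP. EEF1D was at 95.8, 99.4 and 99.1 CPM in WT and 105, 110 and 113 CPM in ZFmut, with no overlap (-0.15 ± 0.05, adjusted p = 0.0258). The call was lost without WT 1, WT 2, WT 3 or ZFmut 3, and gene models on the other strand cover 34.0% of its exonic bases. EEF1B2 was at 248, 246 and 237 CPM against 266, 306 and 251 CPM (-0.17 ± 0.07, adjusted p = 0.0624; with the block 0.000655). EEF1E1, a protein of the aminoacyl-tRNA synthetase complex, was at 5.66, 4.93 and 5.25 CPM against 5.31, 4.01 and 4.26 CPM (0.23 ± 0.12, adjusted p = 0.159).

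EEF2, the translocase, and EEF2K, the kinase that inactivates it, were both lower in WT. EEF2 (chr19:3976056-3985469, minus strand) was at 3566, 4101 and 3965 CPM in WT and 4250, 5063 and 4725 CPM in ZFmut. All WT libraries were below all ZFmut libraries (-0.27 ± 0.06, adjusted p = 0.00423); after the GC and length correction the difference was -0.13 (adjusted p = 0.00524). EEF2K was at 42.5, 44.0 and 41.7 CPM against 49.7, 53.3 and 48.5 CPM, again apart (-0.24 ± 0.06, adjusted p = 0.00553).

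Of 4 tested methyltransferases of elongation factors, EEF2KMT, which methylates eEF2, was lower at 10.7, 12.9 and 12.7 CPM against 14.1, 17.4 and 15.4 CPM (-0.36 ± 0.09, adjusted p = 0.00778). ALG1 covers 29.3% of its exonic bases on the other strand. The eEF1A methyltransferases EEF1AKMT1, EEF1AKMT2 and EEF1AKMT3 had log2 differences from -0.10 to 0.13 and were not called. Among all tested genes 17.2% were lower.

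On the scale of CPM per kilobase of exon, which allows genes to be compared, the WT means were 1598 for EEF1A1, 963 for EEF2, 272 for EIF4H, 235 for EIF5A, 167 for EIF3I and 136 for EIF4G1. The ZFmut means of the same genes were 1689, 1162, 310, 298, 178 and 143, in the same order. EEF1A2 was at 56.1 in WT and 17.8 in ZFmut. At the low end, EEF1AKMT2 was at 0.58 and EEF1AKMT3 at 0.71 in WT.

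Shares within pairs of paralogues, taken from reads per kilobase, put these levels side by side. EEF1A2 made up 3.31, 3.33 and 3.54% of the eEF1A pair in WT and 0.92, 0.975 and 1.248% in ZFmut. EIF4EBP2 made up 40.6, 38.3 and 38.1% of the pair with EIF4EBP1 in WT and 30.9, 25.9 and 27.5% in ZFmut. EIF4G3 made up 14.4, 13.5 and 13.4% of the pair with EIF4G1 against 12.9, 12.0 and 12.3%. These 3 shares separated the groups, as did EIF4A2 within the pair with the undercounted EIF4A1 (98.0% and 97.3% on average). In two-sided exact permutation tests each of the 4 had p = 0.1, the smallest value that 3 against 3 libraries allow, and 0.125 after adjustment over 5 pairs. The share of EIF5A2 beside EIF5A was 0.463% ± 0.037 in WT and 0.409% ± 0.044 in ZFmut (SD, n = 3; exact permutation p = 0.3).

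**Figure D4:**
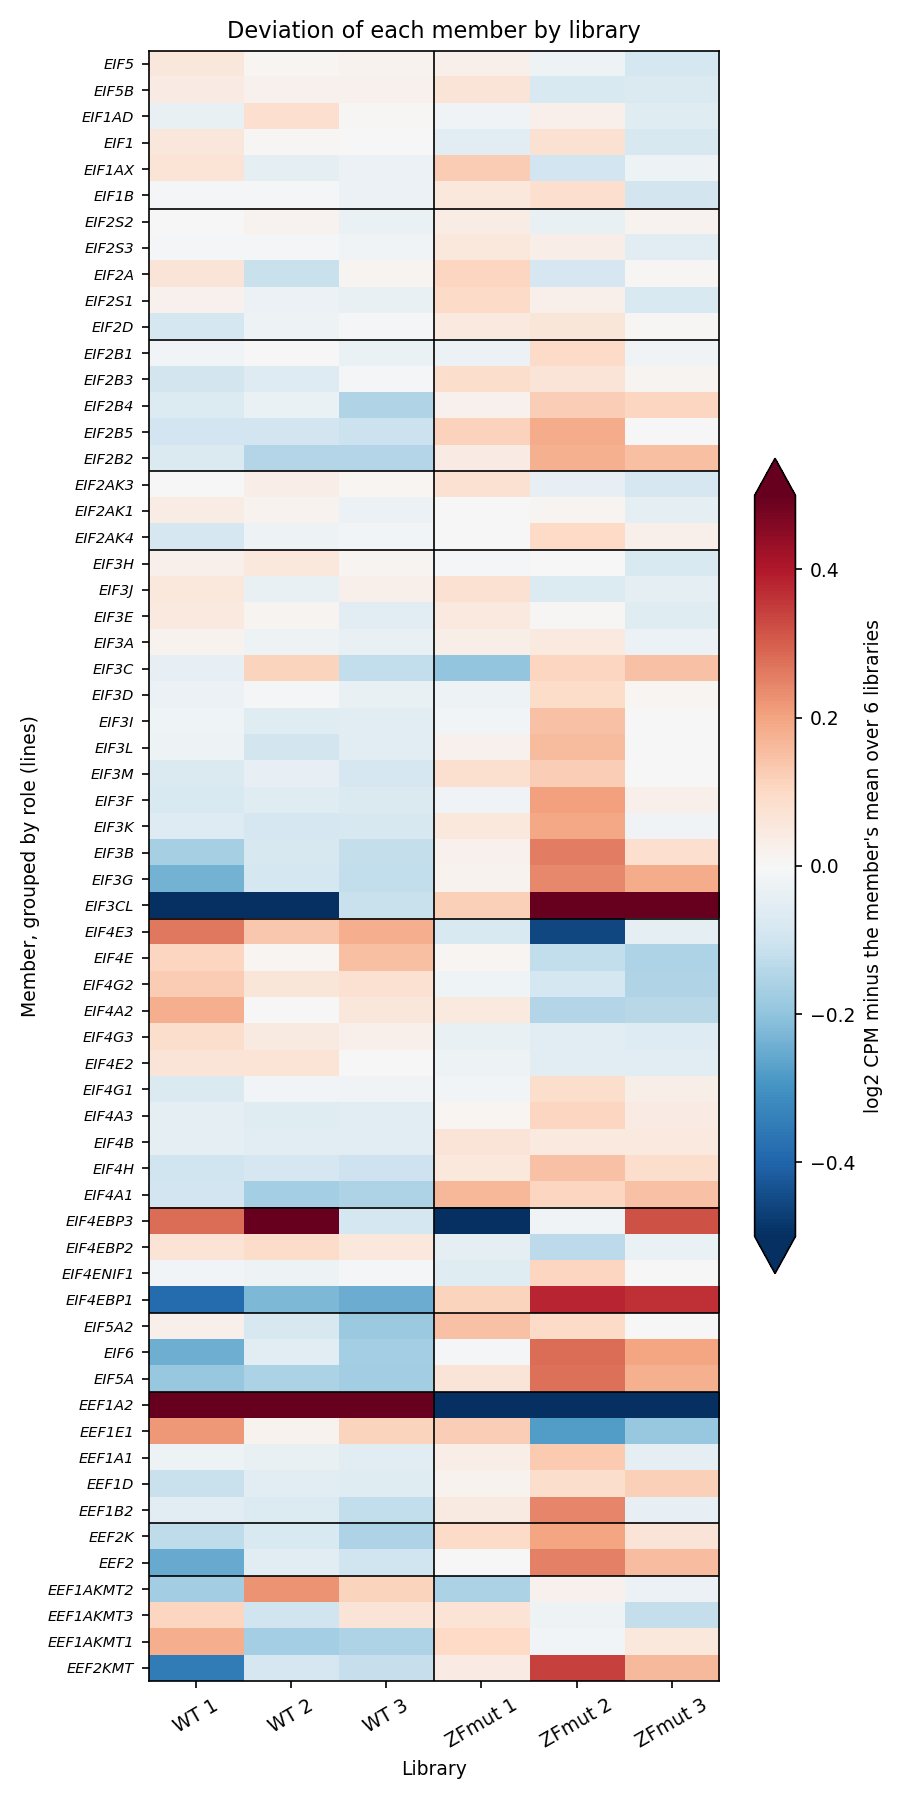
Log2 CPM of each tested member in each library minus its mean over the 6 libraries, with members in rows by role and libraries in columns; the colour scale is limited to 0.5 either way. EEF1A2 is beyond the scale in every library, and ZFmut 2 has the highest value in 30 of the 62 rows.

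The spread among libraries was uneven. The median coefficient of variation of the members was 2.57% among WT libraries and 5.81% among ZFmut libraries. ZFmut 2 was the highest library for 30 of the 62 members, ZFmut 1 for 13 and WT 1 for 9. The median deviation of the members from their means was 0.08 (log2) in ZFmut 2 and between -0.04 and 0.03 in the other 5 libraries. The 83 tested genes of cytosolic ribosomal proteins deviated by 0.20 in ZFmut 2. Without ZFmut 2, 14 members were lower and 3 higher, and the shares of all tested genes in that fit are not given here. With all 6 libraries, 41 of the 83 ribosomal protein genes were lower and 1 higher, beside 17.2% and 18.4% of all tested genes. Their median log2 difference was -0.16. Values of these genes without ZFmut 2 are not given here.

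Differences went with base composition. Across the 62 members, Spearman's rho between the GC content of the longest transcript and the log2 difference was -0.56, and it was -0.31 across 18547 genes; genes share libraries and are not independent replicates. After the GC and length correction the values were -0.20 and -0.05. Of 13 members under 40% GC, 2 were higher and none lower. Of 11 members over 55% GC, 8 were lower and 1, EEF1A2, was higher. Median log2 differences of the members in these ranges were 0.03 and -0.27. Among all tested protein-coding genes the medians were 0.12 (2279 genes) and -0.14 (4570 genes). Shares of those genes called in each range are not given here. The part of base composition in single differences was not tested beyond the GC and length correction.

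**Figure D5:**
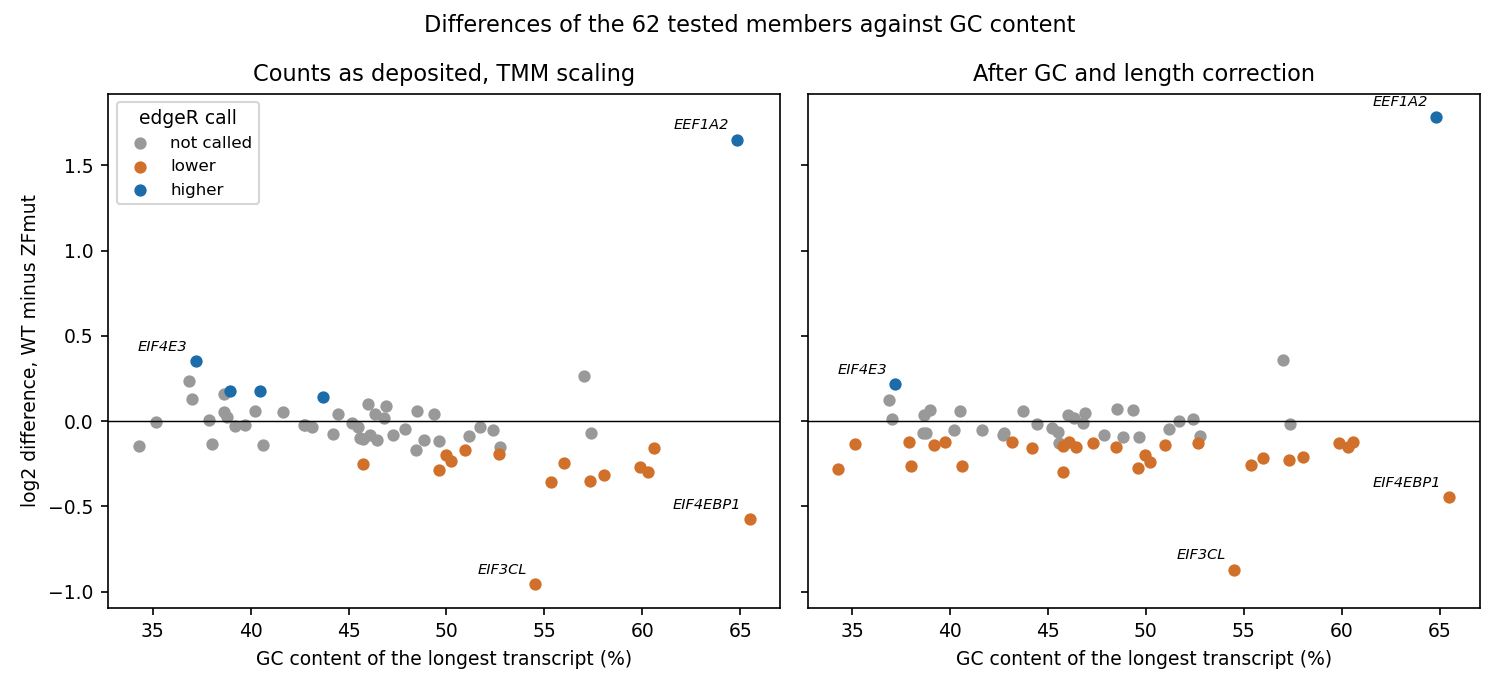
Log2 difference (WT minus ZFmut) of the 62 tested members against the GC content of the longest transcript in percent, before (left) and after (right) correction for GC content and length, coloured by edgeR call. Before correction the lower calls lie at 45% GC and above, and after it they spread over the whole range, with EEF1A2 high on the right in both panels.

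Other genes of protein synthesis were followed through lists chosen by function. For comparison, 17.2% of all tested genes were lower and 18.4% higher, or 22.6% and 23.9% with the block. Shares of all tested genes at an unadjusted p under 0.05, or with DESeq2 or limma-voom, are not given here. Of 22 cytosolic aminoacyl-tRNA synthetase genes, which charge tRNAs, 9 were lower and none higher (median log2 difference -0.13); at an unadjusted p under 0.05, 12 were lower and 1 higher, DESeq2 called 12 lower and limma-voom 10, and both called 0 higher. With the block 13 were lower and 1 higher. VARS, the valine enzyme, was at 340, 395 and 389 CPM in WT and 468, 540.1 and 539.5 CPM in ZFmut (-0.46 ± 0.07, adjusted p = 0.000121). FARSA, a subunit of the phenylalanine enzyme, was at 242, 272 and 272 CPM against 313, 355 and 358 CPM (-0.38 ± 0.06, adjusted p = 0.000333; -0.25 after the GC and length correction). The groups were apart for both enzymes.

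Of 9 genes of diphthamide and hypusine synthesis, the modifications carried by eEF2 and eIF5A, 3 were lower and none higher. DPH7 was at 42.0, 42.4 and 42.4 CPM in WT and 50.1, 52.9 and 50.4 CPM in ZFmut (-0.27 ± 0.05, adjusted p = 0.00119). DPH2 was at 76.9, 81.9 and 81.5 CPM against 87.9, 100 and 93.8 CPM (-0.23 ± 0.06, adjusted p = 0.00543). DOHH, the hydroxylase of the hypusine pathway, was at 37.9, 43.9 and 41.4 CPM against 40.8, 52.5 and 51.0 CPM, with overlap (-0.23 ± 0.08, adjusted p = 0.0475). The DOHH call was lost after the GC and length correction (-0.10, adjusted p = 0.0751) and without WT 1, WT 3, ZFmut 2 or ZFmut 3. At an unadjusted p under 0.05, and with DESeq2 and limma-voom, 0 of the 9 were higher; with the block 1 was higher and 3 were lower. DPH7 and DPH2 were at -0.14 and -0.11 after the correction.

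Of 10 mTORC1 and S6 kinase genes, RPTOR (-0.22 ± 0.06, adjusted p = 0.00875) and MLST8 (-0.23 ± 0.08, adjusted p = 0.0331), subunits of the complex, were lower. TSC1, an inhibitor of the pathway, was higher (0.15 ± 0.05, adjusted p = 0.0377). RPTOR was at 86.8, 96.1 and 96.2 CPM in WT and 102, 111 and 112 CPM in ZFmut. With the block, 4 of the 10 were lower and 1 higher. MLST8 and TSC1 lost their calls after the GC and length correction and without WT 1, WT 3, ZFmut 2 or ZFmut 3, and RPTOR lost its call without ZFmut 3. TSC2, also an inhibitor of the pathway, was not called (-0.13, adjusted p = 0.151), and after the correction it was lower (-0.17, adjusted p = 0.000874). After the correction 2 of the 10 were lower and 0 higher.

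Of 9 genes of the integrated stress response, GCN1, the partner of the kinase GCN2, was lower at 730, 782 and 759 CPM against 888, 979 and 936 CPM (-0.30 ± 0.05, adjusted p = 0.000373). TRIB3, a target of this response, was lower too (-0.33 ± 0.08, adjusted p = 0.00492; -0.18 after the GC and length correction). PPP1R15A, the phosphatase subunit that reverses eIF2 phosphorylation, was higher at 58.7, 57.4 and 60.4 CPM against 51.3, 51.2 and 53.7 CPM (0.17 ± 0.05, adjusted p = 0.0185). That call was lost without WT 1, WT 3 or ZFmut 2. The other 6, ATF4 among them (-0.01, adjusted p = 0.862), were not called in the main test. The block fit called 3 of the 9 higher and 2 lower. Correcting for GC content and length gave ATF4 a higher call (0.095, adjusted p = 0.038). PPP1R15A then stood at 0.31 (adjusted p = 2.15e-05), while GCN1 (-0.28) and TRIB3 kept their lower calls.

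Among 16 poly(A)-binding, cap-side and helicase regulators, 2 were higher and 1 lower. CYFIP1, which binds eIF4E in the FMRP complex, was at 219, 217 and 220 CPM in WT and 164, 182 and 166 CPM in ZFmut (0.36 ± 0.05, adjusted p = 0.000148). PDCD4, an inhibitor of eIF4A, was at 74.2, 71.7 and 71.5 CPM against 65.4, 57.5 and 58.7 CPM (0.26 ± 0.06, adjusted p = 0.00248; 0.16 after the GC and length correction). PABPC4, a poly(A)-binding protein, was at 161, 173 and 168 CPM against 190, 209 and 194 CPM (-0.24 ± 0.06, adjusted p = 0.00373). With the block, 4 were higher and 3 lower. After the GC and length correction 3 were higher and 5 lower, beside 20.5% and 21.0% of all tested genes. With the block added to the correction, 3 were higher and 7 lower, beside 21.5% and 22.5%.

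Of 8 termination and recycling genes, HBS1L, which rescues stalled ribosomes, was higher at 87.5, 77.2 and 78.0 CPM against 65.6, 66.3 and 64.5 CPM (0.30 ± 0.06, adjusted p = 0.000788), and none was lower, also at an unadjusted p under 0.05 and with DESeq2 and limma-voom. With the block 3 were higher. After the GC and length correction HBS1L was at 0.18, and ETF1 (-0.12, adjusted p = 0.0103) and ABCE1 (-0.16, adjusted p = 0.00113) were lower. Of 10 mitochondrial translation factors, the initiation factor MTIF3 was higher (0.42 ± 0.09, adjusted p = 0.00145) and the elongation factor TUFM was lower (-0.29 ± 0.07, adjusted p = 0.00342). TUFM was at 267, 289 and 285 CPM in WT and 310, 375 and 341 CPM in ZFmut, with no overlap, and its difference was -0.17 after the GC and length correction.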

How the data were processed

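Each deposited file holds read counts per Ensembl gene from 1 library, as whole numbers whose totals differ between libraries, so no normalisation was applied by the authors to these values. The submitters' processing notes name GRCh38, TopHat2 2.0.9, HTSeq, cutadapt and DESeq2 without roles. The annotation release and strand setting were not given in the sources used here. The 5 summary lines that name no gene were left out: reads fitting several genes made up 7.71 to 8.08% of a file's total, reads outside genes 5.04 to 6.56%, and reads aligned to several places 16.1 to 19.4%. Symbols, exons and GC content came from GENCODE 29 (94.1% of identifiers matched), and transcription starts from RefSeq on GRCh38.p14.

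The main test was that of edgeR 4.0.16 under R 4.3.3 (TMM, filterByExpr, two-sided quasi-likelihood F test, no covariates, Benjamini-Hochberg over all tested genes, threshold 0.05). Log2 differences carry the standard error of the fit. The scripts were tested on simulated data. Groups and replicate numbers came from the sample titles. Nothing says that replicates were separate cultures, so p-values measure only the spread between libraries, possibly a technical one. No 2 libraries of a group agreed within sampling noise (chi-square per degree of freedom 3.42 to 8.00). Deviations from the group means of same-numbered samples correlated at 0.53, 0.31 and 0.30. Those of differently numbered samples correlated at -0.37 to 0.17, with WT 2 and ZFmut 3 at 0.17 and WT 3 and ZFmut 2 at 0.14. From these same data the replicate number was taken to pair the samples in a block fit. The labels do not state a pairing, and that of replicates 2 and 3 is weakly marked.

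Alternatives were median-of-ratios and upper-quartile scaling, DESeq2 1.42.0, limma-voom (limma 3.58.1), no filter, a filter of 5 CPM in 3 libraries, each library left out, the block, loess offsets per library for GC content and exon length (span 0.5) with and without the block, and thinning to the smallest library.

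Members and lists were chosen with earlier results of these data known. The rule for named members takes called members of at least 5 CPM whose groups do not overlap (up to 10 per direction), up to 2 called members per role by smallest p, and the paralogue sets. Of each list of other genes, up to 2 called genes with the smallest p are named; PABPC4, TSC1, PPP1R15A and DOHH were added after their values were seen. Other members are named with their values.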

Additional observations from a re-analysis of the deposited data

How the results depend on the processing

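For 48 named genes (31 members and 17 others) 766 values were recomputed under 16 alternatives: 671 kept direction and call, 74 kept direction and lost the call, 15 gained one, and 6 changed sign. The 6 were EIF2AK1 (-0.0022 without WT 1, -0.011 with the GC and length correction, -0.013 with that and the block) and EIF2AK3 (-0.0022 without ZFmut 3, -0.017 and -0.022), none of them called; with single libraries left out they reached 0.039 and 0.072 at most. Members higher in WT numbered 2 with the GC and length correction, 2 with it and the replicate block, 3 after thinning, and 2 to 6 with single libraries left out. Members lower in WT numbered 24 with the replicate block, 29 with the correction, 31 with both, and 11 to 20 with single libraries left out. Calls over all tested genes with single libraries left out ranged from 2504 to 3782 higher and from 2266 to 3934 lower. The median log2 difference of the members was -0.0929 with the correction and -0.0922 with the block added, and -0.0863 (without ZFmut 1) to -0.0388 (without WT 3) with single libraries left out. The cause of these shifts was not tested. Other scaling factors ended the calls of EIF4EBP2 and TSC1, DESeq2 those of EIF2B4, EIF3CL, EIF4A1, EIF4E and TSC1, the missing filter those of EIF2B4, EIF4E, EIF4EBP2, PPP1R15A and TSC1, the stricter filter that of DOHH, and thinning those of EIF2B4, EIF4A1, EIF4E, EIF4EBP2 and DOHH. With the replicate block no member and no other named gene lost its call. Taken from read counts instead of reads per kilobase, the share of EEF1A2 differed by 1.95 percentage points in place of 2.34, that of EIF4EBP2 by 8.73 in place of 10.9, and that of EIF5A2 by 0.107 in place of 0.0545. Members with at most 10% of exonic bases shared, a set chosen after seeing the data, numbered 44, with 5 higher and 10 lower. Depth limits members at few CPM, such as EIF3CL and EIF4EBP3, and 3 reads amount to 0.0292 to 0.135 CPM per library.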
